A study of Mus musculus with 9 samples.

Results

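Lymphocytes and plasma cells of the mouse oviduct were followed here through 40 of their marker genes in normal oviducts and in Dicer1 mutant tumors. The members are the rows of the deposited table whose symbol stands on a fixed list of 42 names, out of 19435 genes in all. They hold 13 T cell genes, 9 natural killer (NK) and cytotoxic genes, 6 B cell genes, 4 plasma cell genes and 8 immunoglobulin constant region genes. The J chain gene is listed under its older symbol Igj, so the name Jchain had no row of its own, and Iglc1, a constant region gene of the lambda light chain, was not matched.

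Messenger RNA came from untreated tissue in 9 libraries. Oviducts 1 to 3 were normal oviducts of genotype Dicer1+/D1693N, oviducts 4 and 5 were normal oviducts of genotype Dicer1+/+, and tumors 1 to 4 were primary oviduct tumors of genotype Dicer1ko/D1693N. The D1693N allele was thus common to the tumors and to 3 of the 5 oviducts. Strain, age, the way the knockout allele was made and whether each library came from its own animal are not given in the sources used here, so the p-values below measure only the spread between these libraries. The libraries held 8504993 to 12526078 counted reads. Dicer1 itself ranged from 903.9 to 1236.8 normalized counts in the oviducts and from 576.3 to 1379.2 in the tumors, and counts per gene do not tell its alleles apart. Of 7 oviduct epithelium markers, 4 fell in the tumors and 0 rose, namely the cilia genes Dnah5, Foxj1 and Tubb4b (limma log2 changes of -7.94, -6.28 and -1.72) and Ovgp1, the secreted oviduct glycoprotein (-4.88).

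T cells read antigen through a receptor whose signal passes through the CD3 chains and the kinases LCK and ZAP70. B cells do so through a membrane immunoglobulin held by CD79A and CD79B. A B cell that becomes a plasma cell shuts down PAX5, secretes its immunoglobulin in bulk and can switch its heavy chain from IgM to IgG or IgA. In mucosal tissue, IgA and IgM joined by the J chain are carried across the epithelium by the polymeric immunoglobulin receptor, the product of Pigr.

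Levels are given as normalized counts, which are reads divided by the size factor of the library, and changes as differences of the deposited log2 values ± SE. Differences of sparsely read genes come out too small on that scale. To be called, a gene needed a log2 change of 1 or more in size and an adjusted p under 0.05. In whole tissue, fewer cells of a type and less RNA per cell cannot be told apart.

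The members varied more between libraries of a group than most genes did. The median distance between the highest and the lowest library was 1.73 (log2) among the oviducts and 2.39 among the tumors, against 0.57 and 1.03 over all genes. Tumor 2 was the highest of the 9 libraries for 21 of the 40 members and oviduct 3 for 14, where over all genes they were highest for 10.5% and 10.2%. At the other end, tumor 3 was lowest for 15 members and oviduct 4 for 11, and over all genes for 18.2% and 6.70%. In the heatmap of the members these libraries stand out as columns that run through most classes.

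**Figure D1:**
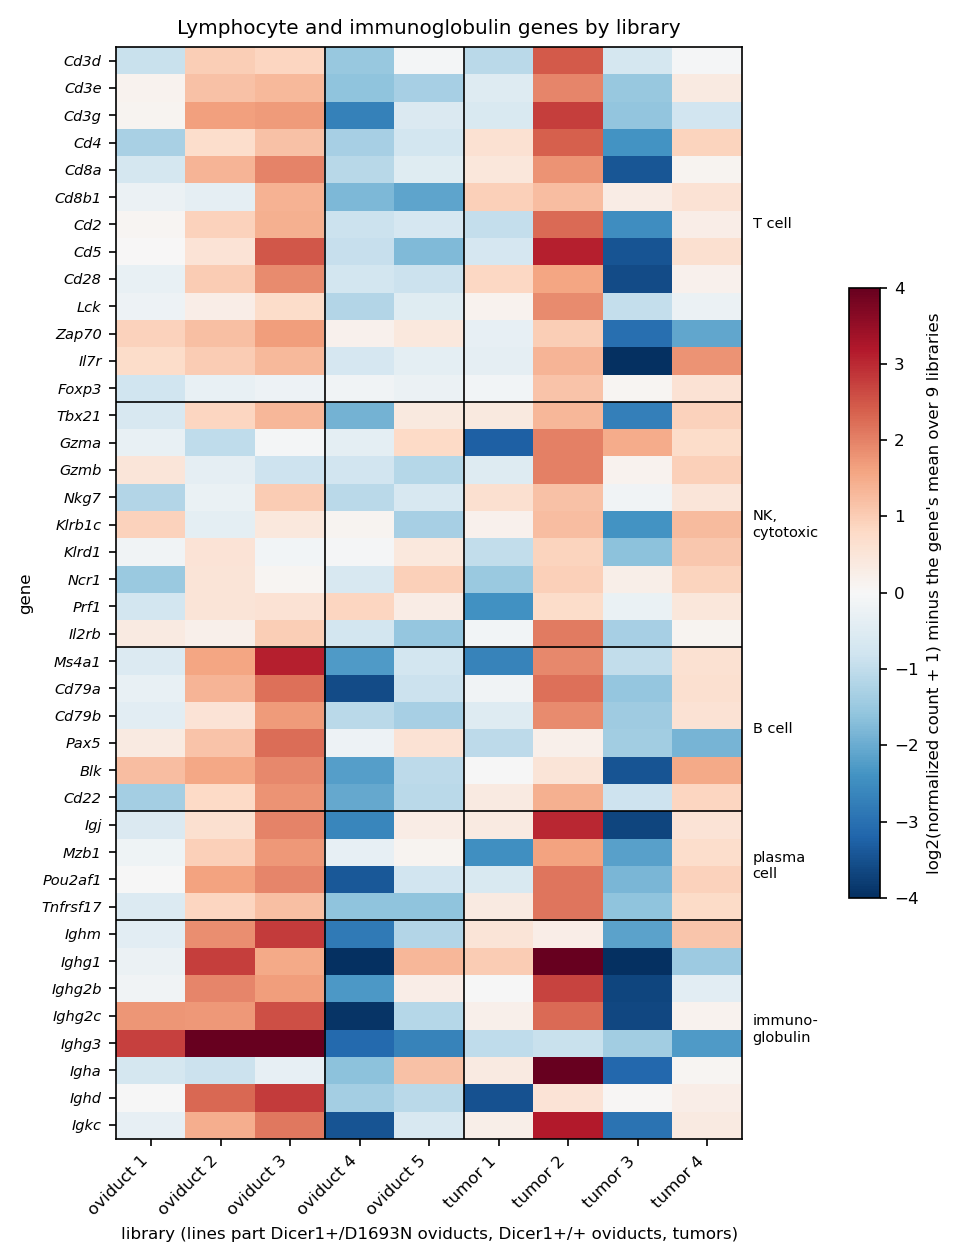
Each row is a member and each column a library, and the colour is log2(normalized count + 1) minus the gene's mean over the 9 libraries, with colours saturated at 4 in either direction. Tumor 2 and oviduct 3 are high and tumor 3 and oviduct 4 low across most classes, while Ighg3 is high in the 3 Dicer1+/D1693N oviducts alone.

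Between tumors and oviducts, 0 members were called higher and 1 was called lower, the B cell factor Pax5. Over all 19435 genes, limma called 18.7%, with 6.53% higher and 12.1% lower. The median change of the members was 0.07, against -0.05 for all genes, and 22 of the 40 members lay above 0. At an unadjusted p under 0.05, 3 members passed (Pax5, Zap70 and Foxp3), where 42.1% of all genes did. Limma-voom on the recovered reads called 0 members, while over all 19435 genes it called 1261 higher and 2850 lower. Foxp3 was the 1 member in which the tumors and the oviducts did not overlap, and 27.6% of all genes were separated in this way. Without tumor 2 the median of the members was -0.38, 8 members lay above 0, and Pax5 and the kinase gene Zap70 were called lower. Without tumor 3 the median was 0.42 and 33 members lay above 0. Quantile normalization moved the median of all genes from -0.05 to 0.08 and that of the members to 0.37, with 28 members above 0, and it changed the sign of 8 members.

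**Figure D2:**
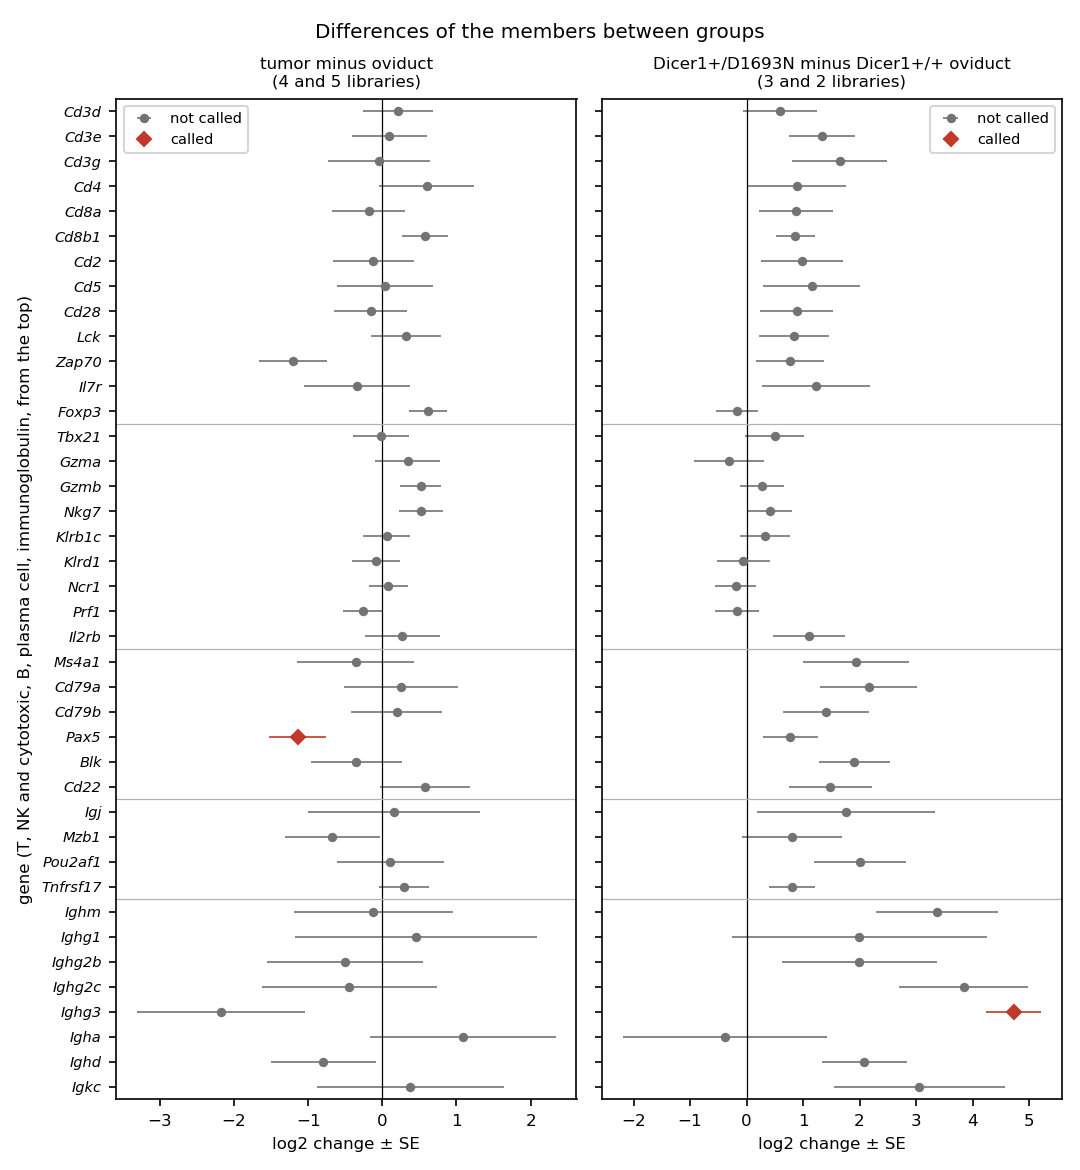
The log2 change ± SE of each member is shown for tumor minus oviduct and for Dicer1+/D1693N minus Dicer1+/+ oviduct, with red diamonds for called genes. On the left the members scatter around 0 and Pax5 is called; on the right 34 of 40 lie above 0 and Ighg3 is called.

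None of the 13 T cell members was called between tumors and oviducts, and their median change was 0.04. The CD3 genes differed far more within the groups than between them. Cd3g, the gamma chain of the CD3 complex, stood at 27.9, 80.9, 84.6, 3.1 and 16.7 normalized counts in oviducts 1 to 5 and at 16.5, 180.6, 7.9 and 14.7 in tumors 1 to 4. Cd3e, the epsilon chain, stood at 23.4, 48.7, 52.7, 6.3 and 7.8 in the oviducts and at 14.6, 85.2, 6.8 and 27.3 in the tumors. In both genes oviducts 2 and 3 and tumor 2 were high, and oviduct 4 and tumor 3 were low. Cd3d, the delta chain, ranged from 4.7 to 31.4 in the oviducts and from 6.8 to 88.6 in the tumors.

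The coreceptor genes of helper and cytotoxic T cells did not share 1 profile. Cd4, which marks helper T cells, stood at 17.9, 74.1, 102.5, 17.3 and 26.8 in the oviducts and at 69.9, 240.7, 7.9 and 85.2 in the tumors. Cd8a, a chain of the CD8 coreceptor, stood at 5.6, 26.2, 40.8, 3.9 and 6.7 in the oviducts and at 13.6, 36.3, 0.0 and 10.5 in the tumors. Tumor 2 was thus highest for Cd4 and oviduct 3 for Cd8a, and tumor 3 was lowest for both. Cd8b1, the other CD8 chain, stood at 6.7, 6.0, 22.9, 1.6 and 1.1 in the oviducts and at 16.5, 20.4, 10.1 and 12.6 in the tumors. Every tumor lay above both Dicer1+/+ oviducts, and the change against that genotype was 1.09 ± 0.33 (limma, adjusted p = 0.0495). It was the 1 member called in the comparison of tumors with Dicer1+/+ oviducts, where 13.8% of all genes were called and 4.07% were called higher. The 2 Dicer1+/+ libraries held 2 and 1 reads of Cd8b1. The call was lost without tumor 1, 2 or 4 (changes of 1.06, 1.01 and 1.13) and without oviduct 1, 2, 4 or 5 (1.09, 1.09, 1.14 and 1.05).

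Zap70 was low in 3 of the 4 tumors. It stood at 65.9, 80.9, 112.4, 38.5 and 45.8 in the oviducts and at 27.2, 69.3, 3.4 and 7.4 in the tumors. Tumor 2 lay within the oviducts and the other 3 tumors below all of them, and the change of -1.20 ± 0.46 did not pass (limma, adjusted p = 0.0693). Without tumor 2 it was -1.63 with an adjusted p of 0.0132. Against the Dicer1+/D1693N oviducts the change was -1.51 ± 0.51 and did not pass (limma, adjusted p = 0.0595). Limma-voom on the recovered reads called Zap70 in that comparison (-2.44, adjusted p = 0.0401). Zap70 did not follow the CD3 genes in every library. It was lower in tumor 4 than in oviduct 4, where Cd3d, Cd3e and Cd3g were higher (14.7, 27.3 and 14.7 against 4.7, 6.3 and 3.1). Lck, the kinase that acts before ZAP70, ranged from 29.9 to 115.4 in the oviducts and from 34.9 to 256.6 in the tumors, with a change of 0.32 ± 0.47 (adjusted p = 0.508).

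Foxp3, the factor that defines regulatory T cells, was the member with the narrowest spread among the T cell genes. It stood at 41.3, 58.4, 62.7, 64.5 and 60.3 in the oviducts and at 66.0, 160.1, 75.4 and 108.3 in the tumors. All tumors lay above all oviducts, and the change of 0.62 ± 0.26 did not pass (limma, adjusted p = 0.0969). Foxp3 did not follow the CD3 genes in every library. In oviduct 4 and tumor 3, where Cd3e was at 6.3 and 6.8, Foxp3 was at 64.5 and 75.4. Foxp3 (ENSMUSG00000039521.13, GRCm38 chromosome X, 7573644 to 7595245, plus strand) overlaps Flicr on its own strand and Ppp1r3f and Ccdc22 on the other strand. Strandedness is not given in the sources used here, so reads of these genes cannot be told apart where they overlap. Ccdc22 ranged from 123.9 to 203.6 in the oviducts and from 150.9 to 251.0 in the tumors, and Ppp1r3f ranged from 89.3 to 143.3 in the oviducts and reached at most 40.8 in the tumors. Their part in the Foxp3 values was not tested.

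The remaining T cell members were the receptor genes Il7r, Cd2, Cd5 and Cd28. Il7r, the receptor for a survival signal of lymphocytes, ranged from 34.6 to 138.3 in the oviducts and stood at 43.7, 145.4, 1.1 and 195.6 in the tumors. Tumor 3 held a single read of it. Cd2 and Cd5, which tune T cell activation, ranged from 12.6 to 64.7 and from 2.2 to 59.7 in the oviducts and from 3.4 to 115.8 and from 0.0 to 93.1 in the tumors. Cd28, the costimulatory receptor, ranged from 5.6 to 43.8 and from 0.0 to 35.2. Changes of these 4 genes lay between -0.34 and 0.04, and none passed. Of 31 further T cell genes, 3 were called higher and 0 lower, with a median change of 0.18. Gata3, a factor of helper T cells that epithelia also make, stood at 21.9 to 32.4 in the oviducts and at 50.5 to 304.0 in the tumors (1.82 ± 0.38, adjusted p = 0.00480). Lef1, a T cell factor of the Wnt pathway, and Lag3, an inhibitory receptor, were the other two (2.00 ± 0.66 and 1.26 ± 0.36, adjusted p = 0.0424 and 0.0225). Tumor 3 was highest for all 3 genes although it was low for the CD3 genes. The call of Lef1 was lost without any 1 of the 5 oviducts (1.76 to 2.12), without tumor 1, 2 or 3 (1.75, 1.94 and 1.54) and in limma-voom on the recovered reads (2.61), and that of Lag3 without oviduct 4 or 5 (1.14 and 1.15) or tumor 2 or 3 (1.23 and 1.03). The constant region genes of the T cell receptor, Trac and Trbc2, ranged from 6.7 to 48.8 and from 19.7 to 80.6 in the oviducts and from 7.4 to 93.1 and from 13.5 to 95.4 in the tumors. Trbc2 shares 110 of its 543 windows of 150 exon bases with Trbc1, so its reads may be split between both genes.

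None of the 9 NK and cytotoxic members was called between tumors and oviducts (median change 0.08). Their summed level was 71.5 to 172.1 normalized counts in the oviducts and 88.4, 347.5, 73.2 and 164.1 in tumors 1 to 4. Tumor 2 was highest for 5 of the 9 genes. Ncr1, the receptor that defines NK cells, had 0.0 to 4.5 in the oviducts and 0.0 to 4.5 in the tumors, at or near the level of a few reads. Klrb1c and Klrd1, receptors of NK cells, ranged from 1.1 to 8.9 and from 14.5 to 24.0 in the oviducts and from 0.0 to 11.6 and from 4.5 to 35.8 in the tumors. Prf1, the pore protein of killer cells, ranged from 2.2 to 8.6 and from 0.0 to 7.9.

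Granzyme genes encode the proteases that enter through that pore. Gzmb stood at 8.9, 4.5, 3.0, 3.1 and 2.2 in the oviducts and at 3.9, 27.3, 6.8 and 12.6 in the tumors (0.52 ± 0.28, adjusted p = 0.181). Gzma stood at 6.7, 3.7, 8.0, 6.3 and 15.6 in the oviducts and at 0.0, 37.5, 25.9 and 14.7 in the tumors (0.34 ± 0.44, adjusted p = 0.594). Tumor 3, low for most T cell genes, was the second highest library for Gzma. Nkg7, a granule protein, ranged from 6.7 to 33.8 in the oviducts and from 14.6 to 37.5 in the tumors. Il2rb, the beta chain of the interleukin receptors that sustain NK and T cells, ranged from 13.4 to 81.6 and from 15.8 to 174.9. Tbx21, the T-bet factor of cytotoxic and type 1 helper cells, ranged from 0.8 to 15.9 and from 0.0 to 15.9.

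Of 26 further NK and cytotoxic genes, 3 were called higher in tumors, namely Fcgr3, Tyrobp and Il18rap. Fcgr3 and Tyrobp, an Fc receptor and a signalling adaptor, are also expressed by macrophages and neutrophils. Fcgr3 stood at 92.7 to 177.1 in the oviducts and at 660.4, 1175.3, 211.7 and 1592.2 in the tumors (2.36 ± 0.48, adjusted p = 0.00430). Tyrobp (1.84 ± 0.59, adjusted p = 0.0371) no longer passed with any 1 oviduct left out (1.71 to 1.97), without tumor 1, 2 or 4 (1.92, 1.51 and 1.40) or in limma-voom on the recovered reads (1.92, adjusted p = 0.0685). Il18rap, a chain of the interleukin-18 receptor, stood at 14.5, 38.2, 13.9, 7.9 and 11.2 in the oviducts and at 54.4, 87.4, 32.7 and 187.2 in the tumors (1.53 ± 0.41, adjusted p = 0.0170). Tumor 3 lay below oviduct 2 and the other tumors lay above all oviducts. Of 14 macrophage markers, 7 were called higher, led by Lyz2, Cd68, C1qb and C1qc (changes of 2.71, 2.16, 1.92 and 1.92), and their summed level was 4356.4 to 6840.9 in the oviducts and 7373.3 to 53401.9 in the tumors, with 0 markers without a read in any library. Their part in the 3 calls was not tested.

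Pax5, the transcription factor of B cell identity, was the 1 B cell member called between tumors and oviducts. It stood at 32.4, 56.9, 122.4, 22.0 and 38.0 normalized counts in oviducts 1 to 5 and at 11.7, 29.5, 9.0 and 6.3 in tumors 1 to 4. Tumor 2 lay above the lowest oviduct and the other 3 tumors lay below all of them. The change was -1.14 ± 0.39 (limma, adjusted p = 0.0455), and against the Dicer1+/D1693N oviducts alone, which did not overlap the tumors, it was -1.45 ± 0.41 (adjusted p = 0.0321). That second call was lost without oviduct 2 or 3 (changes of -1.50 and -1.06), without tumor 1, 3 or 4 (-1.43, -1.38 and -1.31) and after quantile normalization (-1.16), with adjusted p-values of at most 0.133. It held in limma-voom on the recovered reads (-2.33, adjusted p = 0.0331). Pax5 (ENSMUSG00000014030.15, GRCm38 chromosome 4, 44524757 to 44710487, minus strand) overlaps 4 annotated transcripts on either strand. Against all oviducts the call was lost without oviduct 1, 2, 3 or 5 (changes of -1.23, -1.09, -0.87 and -1.19) and without tumor 1, 3 or 4 (-1.12, -1.07 and -1.0), with adjusted p-values of at most 0.0967. It was also lost after quantile normalization (-0.87) and in limma-voom on the recovered reads (-1.87). Pax5 did not follow the other B cell members in every library. It was lower in tumor 4 than in oviduct 4, where every other B cell member was higher, such as Cd79a (74.7 against 3.1) and Ms4a1 (46.3 against 5.5). Which cells the Pax5 reads came from was not tested.

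None of the other 5 B cell members was called. Cd79a, a signalling chain of the B cell receptor, stood at 39.1, 123.5, 225.9, 3.1 and 25.7 in the oviducts and at 43.7, 222.6, 15.8 and 74.7 in the tumors (0.26 ± 0.77, adjusted p = 0.831). Ms4a1, which encodes CD20, stood at 20.1, 92.1, 264.7, 5.5 and 17.9 in the oviducts and at 3.9, 117.0, 14.6 and 46.3 in the tumors (-0.36 ± 0.79, adjusted p = 0.767). Oviduct 3 and tumor 2 were the highest libraries for both genes, and oviduct 4 was far below them. Cd79b and Cd22, a partner chain and an inhibitory receptor, ranged from 25.7 to 217.9 and from 14.9 to 226.9 in the oviducts and from 23.6 to 247.6 and from 36 to 174.9 in the tumors. Blk, a kinase of the B cell receptor, ranged from 3.9 to 84.6 and from 1.1 to 64.2. Tumor 3 held the lowest level of Blk and Cd79b, and oviduct 4 that of Cd79a and Cd22.

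Of 23 further B cell genes, 0 were called higher and 2 were called lower, Vpreb3 and H2-Ob, with a median change of -0.11. Vpreb3, named for a protein of the precursor B cell receptor, stood at 327.0 to 678.8 in the oviducts and at 40.8, 9.1, 0.0 and 1.1 in the tumors (-4.64 ± 0.46, adjusted p = 4.1e-05). H2-Ob, a chain of a class II antigen presentation regulator, stood at 290.0 to 670.7 in the oviducts and at 15.5 to 80.6 in the tumors (-3.06 ± 0.34, adjusted p = 0.000100). Oviduct 4, where Cd79a was lowest, was also the lowest oviduct for both genes, and it lay above every tumor.

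None of the 4 plasma cell members was called between tumors and oviducts. Igj, which encodes the J chain that joins IgA and IgM units, stood at 540.3, 1255.5, 3152.3, 130.5 and 982.5 normalized counts in oviducts 1 to 5 and at 1018.7, 6505.7, 61.9 and 1171.5 in tumors 1 to 4. Tumor 2 was highest and tumor 3 lowest, so that the tumors bracketed all oviducts (0.16 ± 1.16, adjusted p = 0.934). Mzb1, a chaperone of immunoglobulin secretion, ranged from 54.2 to 228.9 in the oviducts and stood at 11.7, 211.2, 14.6 and 112.5 in the tumors (-0.67 ± 0.64, adjusted p = 0.462). Pou2af1, a coactivator of immunoglobulin transcription, ranged from 2.4 to 136.3 in the oviducts and from 9.0 to 157.8 in the tumors. Tnfrsf17, the survival receptor of plasma cells, had at most 6.0 in the oviducts and at most 12.5 in the tumors, and 0 reads in oviducts 4 and 5 and in tumor 3. Of 13 further plasma cell genes, Sdc1, the syndecan of the plasma cell surface, was called higher (1.51 ± 0.32, adjusted p = 0.00568) and Derl3, a gene of protein export from the endoplasmic reticulum, lower (-2.21 ± 0.50, adjusted p = 0.00785), and Xbp1, the secretory factor, was not called (-0.09 ± 0.39, adjusted p = 0.892). Sdc1 and Xbp1 are also made by epithelium, and Sdc1 was at 1337.5 in tumor 3, where Igj was lowest.

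The 8 immunoglobulin constant region members were the most variable class. The median distance between the highest and lowest library was 5.25 (log2) among the oviducts and 5.2 among the tumors. Their 7 heavy chain genes lie in a row on GRCm38 chromosome 12, minus strand, from Ighm at 113418558 to 113422730, the first to be used, through Ighd, Ighg3, Ighg1, Ighg2b and Ighg2c to Igha at 113254830 to 113260236. Class switching replaces Ighm by one of the later genes. No window of 150 exon bases of these genes or of Igkc occurs in another annotated immunoglobulin gene, so a read of that length matches 1 gene. Secreted IgM and IgA share a tail whose cysteine before the last residue bonds to the J chain. The last 60 coding bases before the stop codon of these secreted forms are shown for that reason, from GENCODE M21 transcripts, with the cysteine codon in capitals, and 41 of the 60 bases are identical.
Ighm: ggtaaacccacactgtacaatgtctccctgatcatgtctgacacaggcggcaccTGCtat
Igha: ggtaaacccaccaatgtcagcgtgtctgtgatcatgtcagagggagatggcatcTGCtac

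Igha was far higher in tumor 2 than in any other library. It stood at 457.7, 411.0, 588.1, 234.2 and 1662.4 normalized counts in the oviducts and at 953.7, 24391.0, 82.2 and 784.5 in the tumors. The lowest of all libraries was also a tumor, and the change was 1.09 ± 1.25 (limma, adjusted p = 0.549). Without tumor 2 it was -0.37. Ighm stood at 2277.1, 11098.0, 21364.6, 433.1 and 1350.9 in the oviducts and at 4375.0, 3633.8, 695.8 and 6581.2 in the tumors (-0.12 ± 1.07, adjusted p = 0.947). Tumor 2, with the highest Igha, was thus in the middle of the tumors for Ighm. Ighd, the gene of membrane IgD on naive B cells, ranged from 11.8 to 226.9 in the oviducts and from 1.9 to 46.6 in the tumors.

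Ighg3 had its 3 highest levels in the Dicer1+/D1693N oviducts. It stood at 233.3, 770.4 and 640.8 in the Dicer1+/D1693N oviducts, at 3.1 and 4.5 in the Dicer1+/+ oviducts and at 16.5, 18.2, 12.4 and 6.3 in the tumors. All tumors lay below the first group and above the second, and tumor 2 was not high. Against the Dicer1+/D1693N oviducts the tumors were lower by -4.07 ± 0.41 (limma, adjusted p = 0.000152). Together with Pax5 it was 1 of 2 members called in that comparison, both lower, where 16.6% of all genes were called and 11.4% were called lower. The call held with each of the 9 libraries left out in turn, with changes of -4.57 to -3.75. Against all oviducts the change was -2.18 ± 1.13 (adjusted p = 0.171), and against the Dicer1+/+ oviducts 0.66 ± 0.46 (adjusted p = 0.367). Ighg3 (ENSMUSG00000076615.4) spans 113356224 to 113361232.

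The other IgG genes were high in tumor 2 and low in oviduct 4 and tumor 3. Ighg1 stood at 45.8, 366.8, 153.2, 0.0 and 136.2 in the oviducts and at 108.8, 5337.2, 0.0 and 18.9 in the tumors. Ighg2b ranged from 57.4 to 1117.7 in the oviducts and from 21.4 to 1868.0 in the tumors, and Ighg2c from 11.8 to 1154.3 and from 14.6 to 916.4. Igkc, the constant region gene of the kappa light chain, stood at 2383.2, 8060.7, 12773.4, 272.8 and 1916.9 in the oviducts and at 3513.6, 26950.6, 387.3 and 3845.9 in the tumors (0.38 ± 1.26, adjusted p = 0.848). Tumor 2 held the highest level and oviduct 4 and tumor 3 the lowest. The plot of 6 members by library sets Ighg3 beside other members.

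**Figure D3:**
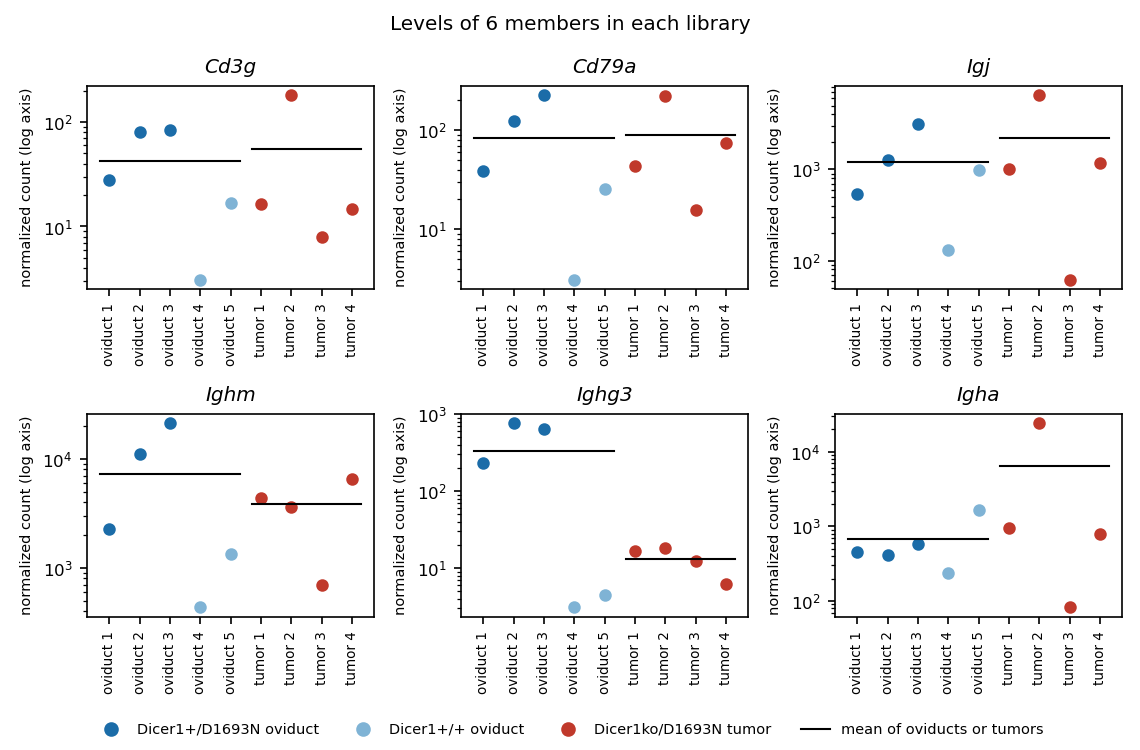
Points are normalized counts of 6 members on a log axis, 1 point per library, coloured by genotype, with a line at the mean of the 5 oviducts and of the 4 tumors. Cd3g, Cd79a and Igj are each higher in oviduct 3 and tumor 2 than in oviduct 4 and tumor 3, Igha is at 24391.0 in tumor 2, and Ighg3 is at 233.3 or more only in the Dicer1+/D1693N oviducts.

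The heavy chain classes were compared as shares of the heavy chain constant region reads of a library, of which there were 763 in tumor 3 to 31888 in tumor 2. Ighm held the larger part in 7 of the 9 libraries. Its share was 57.5%, 76.2%, 85.3%, 57.6% and 37.5% in the oviducts and 73.4%, 10.0%, 81.0% and 83.8% in the tumors. In tumor 2 and oviduct 5 Igha led instead, with 67.4% (exact 95% binomial interval 66.8% to 67.9%) and 46.2%. In the other libraries Igha held 11.6%, 2.82%, 2.35% and 31.2% in oviducts 1 to 4 and 16%, 9.57% and 9.99% in tumors 1, 3 and 4. These intervals cover counting error only, since PCR reads are not independent molecules.

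Averaged over libraries, Igha held 18.8% ± 19.2 (SD, n = 5) of the reads in the oviducts and 25.7% ± 27.9 (SD, n = 4) in the tumors, and 11.9% in the tumors without tumor 2. Both Dicer1+/+ oviducts lay above the 3 Dicer1+/D1693N oviducts in the Igha share. The 4 IgG genes together held 9.62% to 30.2% in the oviducts and 10.6%, 22.5%, 5.64% and 5.74% in the tumors. Ighg1 made up 14.7% of the reads in tumor 2, and 0% to 3.78% in the oviducts. Per kilobase of exon, the mean Igha share was 15.1% in the oviducts and 22.3% in the tumors. On that measure Ighm, the shorter gene, led in oviduct 5, with 44.9% against 39.1% for Igha. Tumor 2 was still led by Igha, with 62.8% against 13.2% for Ighm. Among light chain reads of Igkc and Iglc2, kappa held 91.1% to 99.2% in the oviducts and 96.4% to 99.5% in the tumors. These kappa shares may be too high, since lambda is counted by Iglc2 alone and Iglc1 was not matched. In every library the lambda variable genes (Iglv) held more reads than Iglc2, from 17 against 13 in tumor 3 to 622 against 37 in tumor 4.

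**Figure D4:**
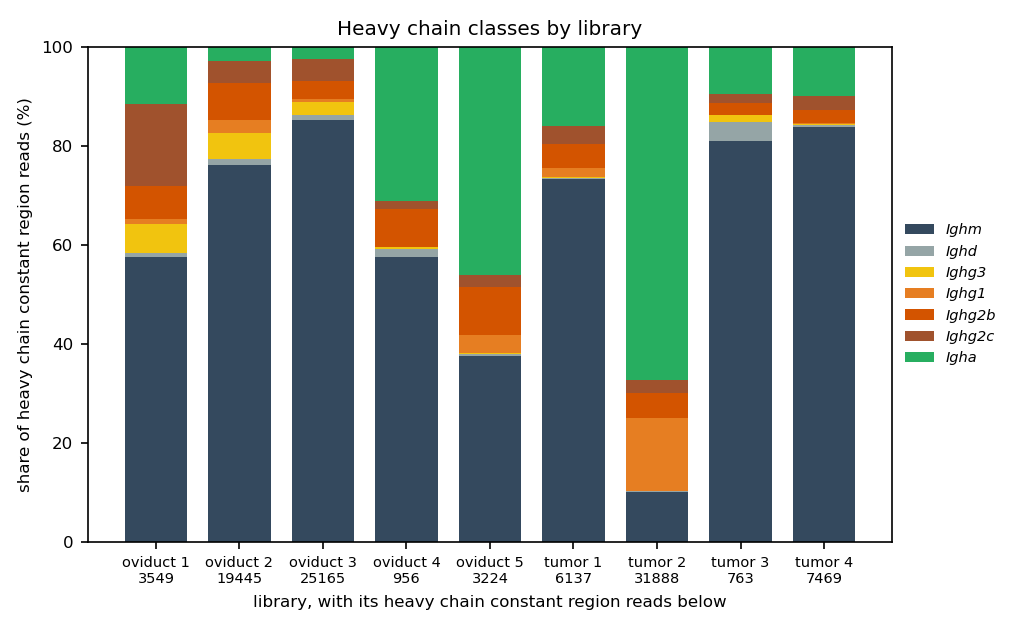
Bars show the share of heavy chain constant region reads held by each of 7 genes, stacked to 100%, with the number of reads of each library under its bar. Ighm fills most of the bar in 7 libraries, and Igha fills 67.4% in tumor 2 and 46.2% in oviduct 5. The shares are not corrected for exon length.

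Each constant region gene is joined to a rearranged variable (V) gene, and V genes were looked at after the values had been seen, since they are no members. The table holds 77 heavy chain (Ighv) and 77 kappa (Igkv) V genes. Ighv1-53 led the Ighv reads in oviducts 1 to 3 with 21.4%, 27.6% and 30.7%, and in tumor 1 with 19.4% (exact 95% binomial interval 17.5% to 21.4%). It held 10.9% and 4.55% in oviducts 4 and 5 and 3.07%, 6.36% and 8.70% in tumors 2 to 4. Igkv3-2 led the Igkv reads in the same 4 libraries and in tumor 4, with 24.2%, 29.3%, 29.3%, 23.4% and 22.5%. It had 0 of 237 Igkv reads in oviduct 4, with an exact 95% upper bound of 1.54%, and held 1.86% in oviduct 5, 1.24% in tumor 2 and 4.41% in tumor 3.

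Tumor 2 was led by other V genes. Ighv9-4 held 20.5% of its 10889 Ighv reads (19.7% to 21.2%) and at most 1.78% in any other library. Igkv9-120 held 27.8% of its 17952 Igkv reads (27.1% to 28.4%) and at most 2.02% elsewhere. Tumor 3 had only 110 Ighv reads, of which 58 came from Ighv1-81, and only 9 of the 77 Ighv genes had a read there, against 74 in tumor 2. Reads of rearranged and mutated V genes may be assigned to a near relative, and over the last 270 coding bases the closest relatives in the annotation, Ighv1-72, Igkv3-1, Ighv9-3 and Igkv9-124, share 258, 251, 247 and 258 bases with Ighv1-53, Igkv3-2, Ighv9-4 and Igkv9-120.

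The 3′ ends of these 4 leading genes are shown because they hold the conserved cysteine before the third complementarity determining region, where the join to the rest of the chain begins. These are the last 90 coding bases of the germline genes from GENCODE M21 (GRCm38), with the last in-frame TGT codon in capitals. Ighv1-53 lies at chr12:115158403-115158835 and Ighv9-4 at chr12:114299961-114300389, both on the minus strand, and Igkv3-2 lies at chr6:70698449-70699067 and Igkv9-120 at chr6:68049983-68050456, both on the plus strand.
Ighv1-53: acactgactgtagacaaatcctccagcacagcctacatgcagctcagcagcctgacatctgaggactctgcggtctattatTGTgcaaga
Ighv9-4: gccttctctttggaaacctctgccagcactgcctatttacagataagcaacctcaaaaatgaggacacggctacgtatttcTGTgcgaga
Igkv3-2: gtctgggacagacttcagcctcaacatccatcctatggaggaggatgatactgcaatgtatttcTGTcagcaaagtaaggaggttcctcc
Igkv9-120: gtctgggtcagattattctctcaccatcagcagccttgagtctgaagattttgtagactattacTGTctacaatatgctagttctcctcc

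**Figure D5:**
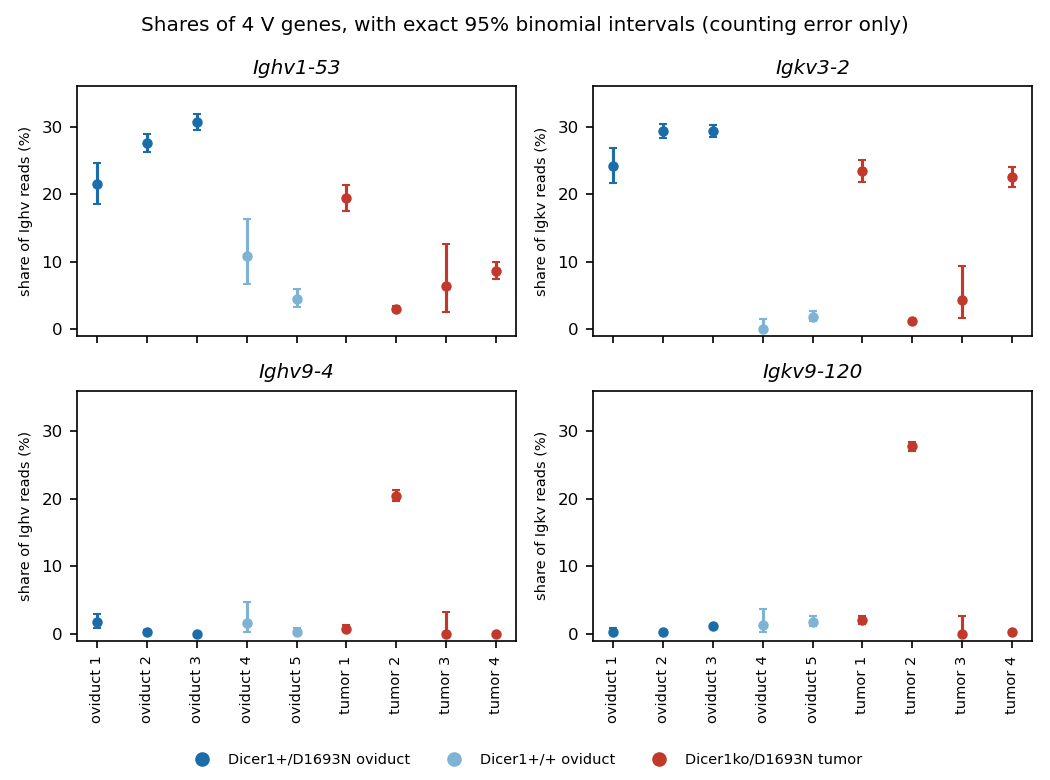
Points are the share of the Ighv or Igkv reads of a library held by 4 V genes, with exact 95% binomial intervals, which cover counting error only. Ighv1-53 and Igkv3-2 are high in the 3 Dicer1+/D1693N oviducts and in tumor 1, and Ighv9-4 and Igkv9-120 in tumor 2.

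The 2 oviduct genotypes differed in level over many members, although only Ighg3 passed the test. In the Dicer1+/D1693N oviducts 21 of the 40 members lay wholly above the Dicer1+/+ oviducts and 0 wholly below, while over all genes 16.3% lay wholly above and 15.7% below. The median change was 0.94, against 0.01 for all genes, and 34 of the 40 members lay above 0. By class, the median was 2.57 for the immunoglobulin genes, 1.69 for the B cell genes, 1.28 for the plasma cell genes, 0.88 for the T cell genes and 0.27 for the NK and cytotoxic genes. Separated genes were 5 of 8, 4 of 6, 2 of 4, 9 of 13 and 1 of 9 in the same order. Most members shared their highs and lows across libraries, so these counts are not independent and rest on 3 libraries against 2. With 3 libraries against 2, limma called 4 genes in the whole table, which is 0.0206%, and 1 of them was a member. It was also the 1 gene called higher in the table (0.00515%).

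That member was Ighg3, with 209, 1029 and 644 reads in the Dicer1+/D1693N oviducts and 4 and 4 in the Dicer1+/+ oviducts (4.73 ± 0.49, limma, adjusted p = 0.0212). The call was lost without oviduct 2, 3, 4 or 5 (changes of 4.41, 4.54, 4.66 and 4.80), without tumor 1, 2 or 3, which enter only through the shared spread (4.73 each), and in limma-voom on the recovered reads (6.90). Its adjusted p over the fits that left out a library was at most 0.279. Ighg2c showed the same order with 655.2, 634.1 and 1154.3 normalized counts against 11.8 and 87.1, and so did Ighm. Neither passed, with changes of 3.84 ± 1.15 and 3.37 ± 1.08 and an adjusted p of 1 for each. At an unadjusted p under 0.05, 9 of the 40 members passed, where 2.75% of all genes did. Igha lay on the other side, with a change of -0.39 ± 1.80.

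Some markers of other sources were also higher in the Dicer1+/D1693N oviducts, but none of the pan-leukocyte, lymph node stroma or macrophage genes listed here was called (limma). Of 20 pan-leukocyte genes, 11 lay wholly above in the Dicer1+/D1693N oviducts and 0 wholly below, and Ptprc, the common leukocyte antigen, stood at 298.0, 538.3 and 823.9 against 277.5 and 233.3. Of 7 measured lymph node stroma markers 4 lay wholly above, with a summed level of 379.5 to 601.2 against 218.8 and 222.4. Glycam1, a product of the lymph node vessels through which lymphocytes enter, stood at 21.2, 217.9 and 145.3 against 0.0 and 16.7, and Ccl19 at 4.5, 0.0 and 5.0 against 0.8 and 1.1. In tumor 2, Glycam1 was at 575.7 and Madcam1, the vessel ligand of gut-homing lymphocytes, at 126.0, while Ccl19 was at 1.1. The other markers of that list, Lyve1, Prox1, Cxcl13 and Tnfsf11, were at 52.2, 29.5, 22.7 and 25.0 in tumor 2. In the 5 oviducts they ranged from 103.8 to 250.0, 36.2 to 73.7, 13.4 to 105.5 and 0.0 to 21.7. Of 14 macrophage markers 2 lay wholly above and 0 below, with a median change of 0.09. The part of lymph node tissue in the member levels was not tested.

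A list of 14 genes covered IgA transport, lymphocyte and plasma cell recruitment, adhesion and cytokines. Of these, 5 were called higher in the tumors than in the oviducts and 0 lower, with a median change of 1.19. The shares over all genes were 6.53% higher and 12.1% lower. Pigr, the IgA and IgM transporter of epithelium, stood at 167.4, 155.7, 126.4, 401.7 and 178.6 in the oviducts and at 556.5, 6962.2, 327.6 and 2127.5 in the tumors (2.65 ± 0.75, adjusted p = 0.0222), and the call was lost without oviduct 3 (2.52). Tumor 2 was highest for Pigr as it was for Igha and Igj. Ccl28, a chemokine that attracts IgA plasma cells, stood at 125.4 to 265.8 in the oviducts and at 398.2, 2021.3, 137.4 and 779.3 in the tumors and did not pass (1.48 ± 0.59, adjusted p = 0.0818). Of the 14 genes, 12 had a change above 0. Ccl25, another chemokine of the list, stood at 88.2 to 120.4 in the oviducts and at 33.0, 27.3, 117.1 and 30.5 in the tumors. Vcam1, an adhesion molecule for lymphocytes, stood at 152.9, 235.1, 282.6, 70.0 and 104.9 in the oviducts and rose to 1045.9, 1054.9, 510.0 and 656.2 in the tumors (2.22 ± 0.37, adjusted p = 0.00132). Tgfb1, a cytokine of IgA switching, stood at 183.1 to 232.2 in the oviducts and rose to 572.0, 638.2, 442.5 and 895.0 in the tumors (1.49 ± 0.19, adjusted p = 0.000256). Cxcl12, a chemokine that draws plasma cells, stood at 1143.2 to 1853.5 in the oviducts and rose to 2640.5, 3202.3, 7765.1 and 3651.3 (1.29 ± 0.29, adjusted p = 0.00711). Without tumor 3 its change was 0.97, under the minimum change of 1. Tumor 3, the highest library for Cxcl12, was the lowest for Igha (82.2) and Igj (61.9). Icam1, an adhesion molecule, had the smallest change of the 5 (1.23 ± 0.36, adjusted p = 0.0246), and the call was lost without oviduct 4 or 5 (1.12 and 1.15) or tumor 2 (0.98).

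Of the 20 pan-leukocyte genes, 2 were called higher in the tumors and 0 lower, with a median change of 0.80. Laptm5, a lysosomal protein of blood cells, stood at 435.4 to 737.4 in the oviducts and at 1728.6, 2032.7, 694.7 and 3168.6 in the tumors (1.52 ± 0.37, limma, adjusted p = 0.0101). Lcp2, an adaptor of immune receptor signalling, stood at 46.9 to 107.5 and at 140.8, 353.2, 113.7 and 305.0 (1.35 ± 0.34, adjusted p = 0.0136). All tumors lay above all oviducts for Lcp2, and tumor 3 lay within the oviducts for Laptm5.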

How the data were processed

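The authors deposited log2-scale values for 19435 genes in 9 libraries of poly-A RNA, and the transformation is not stated. The submitters' processing notes name FastQC 0.11.5, STAR 2.5.3a, HTSeq and the builds GRCm38 and mm10; strandedness and annotation are not given in the sources used here. The values share a floor of 3.427, and undoing a variance-stabilizing transformation gave whole reads divided by 1 size factor per library for 100% of values (tolerance 0.05 reads). Normalized counts and read totals of 8504993 to 12526078 come from that. One read was worth 0.749 to 1.14 normalized counts.

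The deposited log2 values were tested with limma 3.58.1 under R 4.3.3 (two-sided moderated statistics, prior variance with a trend, Benjamini-Hochberg over 19435 genes), with 2 groups for tumor against oviduct and 3 groups sharing 1 spread for the other 3 comparisons. The script was tested on simulated data. Coordinates and sequences come from GENCODE M21 (GRCm38). Binomial intervals are exact, at 95%. Alternatives were quantile normalization, limma-voom on recovered reads, leaving out the genes in the lowest 0.25 of mean level, no minimum change, a replicate block, each library left out, and shares per kilobase.

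The members and gene lists were chosen with earlier results of these data known. All members are accounted for, and of other lists up to 4 genes per direction called between tumors and oviducts are named, by largest change, plus Ptprc, Trac, Trbc2, Xbp1, Sdc1 and Pigr; 1 further gene of that rule is not reported here. Icam1, Adipoq, Hbb-bs, V genes, Glycam1, Ccl19, Madcam1, Lyve1, Prox1, Cxcl13, Tnfsf11, Ccl28, Ccl25 and the neighbours of Foxp3 were picked once their values had been seen.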

Additional observations from a re-analysis of the deposited data

Results flagged for a closer look

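Of 80 groups of libraries checked for a member gene on the log2 values, 2 held a library far from the others. Chance flags about 1 in 20 groups. On that scale Igha in tumor 2, at 24391.0 normalized counts against 82.2 to 953.7 in the other tumors, was not flagged. Cd3g stood at 180.6 normalized counts in tumor 2, while the other 3 tumors lay between 7.9 and 16.5. Foxp3 stood at 41.3 in oviduct 1, while the other 4 oviducts lay between 58.4 and 64.5.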

How the results depend on the processing

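The number of members called was 1 between tumors and oviducts, and it was 0 after quantile normalization and in limma-voom on the recovered reads, and 0 to 2 with a library left out. Against the Dicer1+/D1693N oviducts it was 2, with 1 after quantile normalization and 1 to 3 with a library left out. In that comparison limma-voom called Zap70 besides Ighg3 and Pax5, and over all genes 916 higher and 2580 lower. Against the Dicer1+/+ oviducts the number of members was 1, with 0 to 2 with a library left out. It was 0 without the genes in the lowest 0.25 of mean level, to which Cd8b1 belongs. Between the oviduct genotypes it was 1, with 0 in limma-voom and 0 to 1 with a library left out. Over all genes, leaving out a library gave 3250 to 4170, 2215 to 3890, 1123 to 3570 and 0 to 4 calls in these comparisons, limma-voom gave 2 in the last, and without a minimum change 6051 genes passed between tumors and oviducts. The change of Igha between tumors and oviducts reversed to -0.37 without tumor 2 and was at most 2.26 with another library left out. Of the calls between tumors and oviducts, quantile normalization gave 1696 higher and 1943 lower genes, where 1269 and 2356 were called on the deposited values. Against the Dicer1+/D1693N oviducts it gave 1388 and 1819 against 1004 and 2219. With a library left out, the mean Igha share ranged from 12.0% to 22.9% in the oviducts and from 11.9% to 31.1% in the tumors. The mean Ighm share then ranged from 57.2% to 69.2% in the oviducts and from 54.8% to 79.4% in the tumors. The cause of these changes was not tested. Same-numbered oviducts and tumors correlated in their deviations at 0.117, 0.061, -0.089 and 0.006, and the other pairs at -0.146 to 0.139. No pairing by number was visible, but these values cannot settle whether libraries share animals. With the replicate block 3230 genes were called between tumors and oviducts. Ighg3 was then the 1 member called (-2.87, limma, adjusted p = 0.0462) and Pax5 was not (-1.19). The calls of Tyrobp, Lef1, Il18rap, Lcp2 and Icam1 were also lost with the block (1.71, 1.76, 1.47, 1.25 and 1.15). Against the Dicer1+/D1693N oviducts 3325 genes and 2 members, Ighd and Ighg3, were called with it, and Pax5 was not (-1.31). Depth limits the members with few reads, such as Ncr1, Prf1, Tnfrsf17 and Cd8b1, since 3 reads equal up to 3.41 normalized counts.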

Other observations

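Markers of neutrophils and mast cells differed between tumors and oviducts. Of 10 neutrophil markers, 5 were called higher in the tumors and 0 lower, with a median change of 2.87. The largest changes were those of S100a9, S100a8, Retnlg and Cxcr2 (5.83, 5.10, 3.46 and 2.99). In limma-voom on the recovered reads S100a9, S100a8 and Retnlg did not pass (9.01, 7.38 and 6.43), and Retnlg did not without tumor 2 (2.75). S100a9, an abundant neutrophil protein, stood at 0.0 to 3.9 normalized counts in the oviducts and at 607.0, 4316.3, 25.9 and 3675.5 in the tumors. Of 9 mast cell markers, 6 were called lower and 0 higher, led by Mcpt4, Hdc, Cma1 and Tpsb2 (-2.32, -2.07, -2.04 and -2.03). The call of Hdc was lost without any 1 of the 5 oviducts (-2.19 to -2.01) and without tumor 1 or 4 (-1.59 and -1.51). Mcpt4, a mast cell protease, stood at 56.9 to 110.5 in the oviducts and at 11.7, 0.0, 0.0 and 18.9 in the tumors. Tumor 2, the highest library for 21 of the 40 lymphocyte members, thus had 0 reads of Mcpt4. Hdc differed from Mcpt4 there. It stood at 3751.0 to 6192.1 in the oviducts and at 442.8, 4750.1, 2881.1 and 373.3 in the tumors, so tumor 2 lay within the oviducts. Whether the Hdc reads came from mast cells was not tested. Fat and red cell markers were each high in 1 tumor. Adipoq, a fat cell hormone, stood at 224.4 to 1703.7 in the oviducts, reached 5427.6 in tumor 4 and had no read in tumors 1 to 3. Of 7 fat cell markers 0 were called between tumors and oviducts and 0 had a change above 0 (median -2.97). Hbb-bs, a globin of red cells, stood at 581.7 to 1254.8 in the oviducts. In tumor 1 Hbb-bs reached 32048.4, and in tumors 2 to 4 at most 1103.8.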
